A study of Mus musculus with 15 samples.

Results

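The 9 genes described here make retinoic acid, carry it or its precursor retinol, or bind it as nuclear receptors. They were chosen by symbol from the 51826 genes of the deposited tables and were Aldh1a1, Aldh1a2 and Aldh1a3 (synthesis), Rbp4, Rbp7 and Crabp2 (binding), and Rara, Rarb and Rarg (receptors). RNA-seq values were available for 15 libraries of 13 mice. Trim24COE mice carry a Flag-tagged mouse Trim24 transgene behind a floxed stop, integrated as a single copy, and MMTV-Cre removes the stop mainly in mammary epithelium. Their tumors were labelled carcinosarcoma in 3 mice (64, 567 and 897) and carcinoma in 3 mice (89, 273_5 and 3956). In the study's pathology listing, the first pathologist called tumors 89 and 3956 carcinosarcoma and the second called them carcinoma. Tumor 567 was spindle cell carcinoma to the first and carcinosarcoma to the second. The listing also has a call based on RNA-seq, and how far the labels rest on it is not stated. The 4 control glands (133, 392, 417_3 and 517_3) were disease-free mammary glands of MMTV-Cre mice, which have the Cre but not the transgene. The 3 non-TRIM24 tumors (219, FVB001 and FVB002) were labelled as spontaneous carcinomas of unknown genotype. The labels give the strain as FVB throughout, whereas the series text names FVB/129 mice, and they give no ages. The study lists ages for the Trim24COE tumor mice and describes the control animals as age-matched. The values were deposited in 2 sets, here called batch 1 and batch 2. Whether these sets were separate sequencing runs was not established here. Control gland 133 and carcinoma 3956 each had a second library in batch 2, which otherwise held only the non-TRIM24 tumors. All other libraries were in batch 1.

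Retinol travels in blood bound to the carrier RBP4 and enters cells through receptors such as STRA6. Inside the cell, retinol is oxidized reversibly to retinaldehyde, and the retinaldehyde dehydrogenases ALDH1A1, ALDH1A2 and ALDH1A3 then convert it irreversibly to retinoic acid. CRABP2 delivers retinoic acid to the receptors RARA, RARB and RARG, which act as dimers with RXR receptors on direct repeats of a short half-site. RBP7 is a cellular retinol-binding protein best known from adipocytes and endothelium. TRIM24 binds nuclear receptors, among them RARA, as a cofactor.

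The promoter of Rarb is shown because Rarb is the classic gene regulated by its own receptor family, and that of Cyp26a1, the main retinoic acid-degrading enzyme, because it was the only other gene of the retinoic acid lists with the same element. RefSeq windows ran from 250 bases before to 50 bases after an annotated start (build GRCm38.p6), and a gene could have several. They were searched on both strands for direct repeats, spaced by 1, 2 or 5 bases, of half-sites with the letters AGGTCA or GGGTCA. The forms with T as the third letter were counted too, namely AGTTCA and also GGTTCA. The table held 13 windows for 7 of the 9 genes, and Aldh1a3 and Crabp2 had none. The repeat spaced by 5 bases was present in 0.0974% of all 32851 windows, and among the windows of the 9 genes it was found once, in that of Rarb. It lies from 53 to 37 bases before an annotated start that is inside the Rarb gene. In Cyp26a1 it lies from 32 to 16 bases before the start, on the other strand. The 250 bases before each start are printed 5′ to 3′ on the strand of the gene, with the half-sites in capitals.
Rarb, chr14:16575477-16575726, minus strand: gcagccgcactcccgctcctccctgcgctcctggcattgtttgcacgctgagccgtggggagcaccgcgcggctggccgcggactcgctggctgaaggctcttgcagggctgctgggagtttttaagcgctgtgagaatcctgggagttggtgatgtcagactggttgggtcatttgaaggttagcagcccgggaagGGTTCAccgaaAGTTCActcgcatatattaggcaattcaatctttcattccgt
Cyp26a1, chr19:37697558-37697807, plus strand: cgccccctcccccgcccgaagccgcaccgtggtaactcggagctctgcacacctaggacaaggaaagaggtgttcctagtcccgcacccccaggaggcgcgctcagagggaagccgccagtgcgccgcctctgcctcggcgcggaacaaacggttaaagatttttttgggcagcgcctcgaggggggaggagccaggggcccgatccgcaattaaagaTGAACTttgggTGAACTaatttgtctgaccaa
Repeats spaced by 1 and 2 bases were present in 0.222% and 0.268% of all windows and in none of the windows of the 9 genes. These matches describe the letters in the windows and are not measured binding sites.

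Total Trim24 RNA was not higher in the tumors labelled Trim24COE. It was 10.6 to 14.5 TPM in carcinosarcomas, 13.9 to 24.1 TPM in carcinomas, 14.5 to 22.4 TPM in control glands and 5.34 to 10.04 TPM in non-TRIM24 tumors (log2 fold change of Trim24COE tumors against control glands -0.24 ± 0.26 (SE), limma adjusted p = 0.557). These values do not separate transgene from endogenous RNA, the study's qRT-PCR and immunostaining of TRIM24 were not analysed here, and the group names below are those of the labels. The control glands fell into a pair with much fat and a pair with little. The summed level of 12 adipocyte markers was 27916 and 40618 TPM in glands 133 and 392, but 1985 and 2153 TPM in glands 417_3 and 517_3, and no defining adipocyte marker (Adipoq, Plin1, Cidec) was at 0 in any library. Glands 417_3 and 517_3, both in batch 1, were also closer to each other than repeat libraries of a single mouse, which span batches 1 and 2. A batch difference can thus enter the figures of the repeats but not that of the glands. Of 15419 genes, 2.87% differed more than 2-fold between these glands, against 3.40% and 3.64% between the repeats of mice 3956 and 133 and 8.66% or more between any other mice of a group. Calls among the 9 genes that are lost when these glands are averaged into 1 sample are named below, and this alternative was not run for single genes outside the 9. Epithelial marker sums were 395 to 1427 TPM in carcinosarcomas and 3153 to 7501 TPM in carcinomas. These are whole tissues, so fewer cells of a type and less RNA per cell cannot be told apart, and the TPM values do not carry the read counts behind them.

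Against control glands, 4 of the 9 genes passed the threshold in the 6 Trim24COE tumors. Aldh1a1 and Rbp7 were lower, and Aldh1a2 and Crabp2 were higher. Over all 15196 genes tested, 17.1% passed (7.96% higher and 9.13% lower). The median log2 fold change of the 9 genes was 0.31, beside -0.04 over all genes tested. Tumors and control glands did not overlap in TPM for 2 of the 9 genes (both lower in tumors), compared with 14.6% of all genes.

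In carcinosarcomas alone, 3 genes were lower (Aldh1a1, Aldh1a3 and Rbp7) and Crabp2 was higher, where 23% of 15287 genes passed (9.83% higher, 13.1% lower). Values did not overlap between carcinosarcomas and control glands for 5 of the 9 genes, beside 37% of all genes. In carcinomas alone, only Rbp7 passed (lower), among 3.5% of 15479 genes (1.58% higher, 1.92% lower), and 2 of the 9 genes did not overlap, beside 21.4% of all genes. These comparisons share the same 4 control glands.

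Carcinosarcomas and carcinomas were not separated by any of the 8 genes tested here (limma, 0 past the threshold and 1 at an unadjusted p under 0.05, Aldh1a3). Over 14193 genes, 0.698% passed (0.113% higher, 0.585% lower) and 21.8% did not overlap. Aldh1a1 was not tested, because fewer than 3 of these tumors reached 1 TPM. With the batch term, none of the 9 genes passed between non-TRIM24 tumors and control glands (limma, 2 at an unadjusted p under 0.05, Aldh1a2 and Rbp7), where 0.709% of 16775 genes passed (0.203% higher, 0.507% lower). In carcinomas of Trim24COE mice compared with non-TRIM24 tumors, Rbp7 passed as lower, and it was 1 of 5 genes in all, 0.0298% of 16775 (0% higher, 0.0298% lower).

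**Figure D1:**
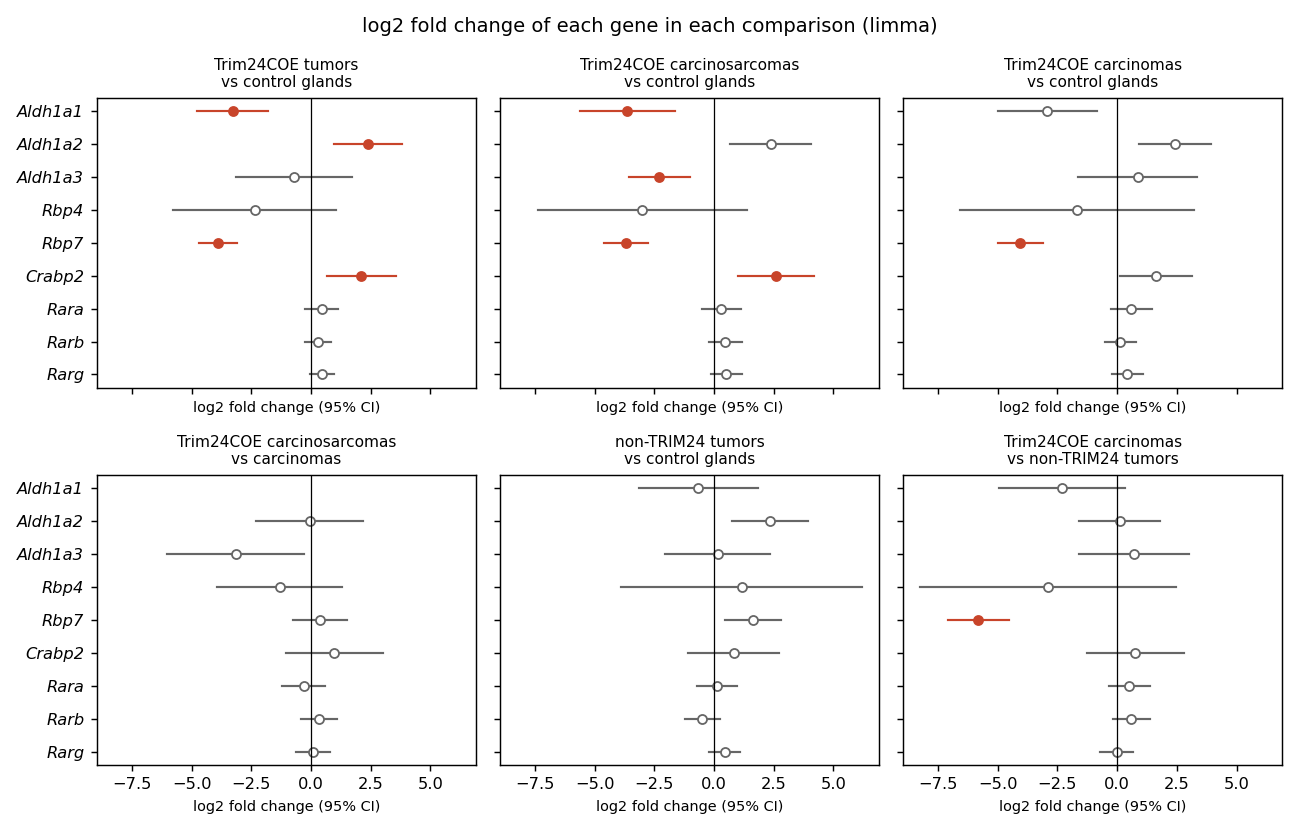
log2 fold change (x axis, on the log2(TPM + 1) scale) of the 9 genes (y axis) in 6 comparisons, from limma. Points are estimates, bars are 95% confidence intervals, and filled red points passed an adjusted p of 0.05. Rbp7 lies far below 0 wherever Trim24COE tumors were compared with control glands or non-TRIM24 tumors. Estimates of the 3 receptors range from -0.50 to 0.60, and none of them passed.

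Aldh1a1, the retinaldehyde dehydrogenase that is prominent in fat and in mammary progenitor cells (chromosome 19, 20492715 to 20643465, plus strand, GRCm38), was low in every Trim24COE tumor. Control glands 133 and 392 had 54.7 and 55.2 TPM, and glands 417_3 and 517_3 had 6.29 and 5.47 TPM. The carcinomas 89, 273_5 and 3956 had 3.77, 0.96 and 0.81 TPM, and the carcinosarcomas 567, 64 and 897 had 1.38, 0.33 and 0.25 TPM. All 6 tumors lay below all 4 glands (1.25 ± 1.303 against 30.4 ± 28.3 TPM, SD, log2 fold change -3.28 ± 0.68 (SE), limma adjusted p = 0.00922, exact permutation p = 0.00476, the smallest that 6 against 4 mice allow). The call held without each mouse in turn and with glands 417_3 and 517_3 averaged. With the adipocyte markers as a covariate the log2 fold change was -1.21 (limma adjusted p = 0.0394). With the endothelial markers as a covariate it was -3.36 (limma adjusted p = 0.0815). The adjusted p ranged over all alternatives from 0.00698 to 0.0815.

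In carcinosarcomas, Aldh1a1 was also lower (log2 fold change -3.63 ± 0.87, limma adjusted p = 0.0215), but without carcinosarcoma 64, 567 or 897 the adjusted p was 0.0889, 0.0551 or 0.0767. It was 0.0765 without the filter on low values, 0.052 with quantile normalization and 0.255 with the endothelial covariate. In carcinomas it did not pass (-2.93 ± 0.90, limma adjusted p = 0.114). Among non-TRIM24 tumors, FVB001 and FVB002 had 62.0 and 30.6 TPM and tumor 219 had 0.49 TPM. The adipocyte marker sum was 57418 and 29024 TPM in the first 2 of these tumors and 231 TPM in tumor 219, and 183 to 1525 TPM in Trim24COE tumors, so Aldh1a1 and the adipocyte markers moved together across the libraries. By this sum no Trim24COE tumor reached any gland (1985 to 40618 TPM), so the value with the adipocyte covariate rests on a fitted trend. The part of fat content in the result was not tested beyond that covariate. Aldh1a7, a near-identical neighbour of Aldh1a1 whose reads may be shared with it, had 57.6, 36.8, 0.67 and 0.82 TPM in glands 133, 392, 417_3 and 517_3 and at most 5.15 TPM in Trim24COE tumors. The level of either gene alone is uncertain for that reason.

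Aldh1a2, the main retinoic acid-making enzyme of embryonic mesoderm and of mesenchymal tissue (chromosome 9, 71215789 to 71296243, plus strand), was scarce in control glands. It was 0.66, 2.56, 0.16 and 0.29 TPM in glands 133, 392, 417_3 and 517_3. The carcinomas 89, 3956 and 273_5 had 17.3, 12.2 and 2.33 TPM, and the carcinosarcomas 567, 64 and 897 had 30.8, 5.28 and 2.60 TPM. Only carcinoma 273_5 lay below the highest gland, and the carcinosarcomas lay above all glands. The 6 tumors together passed (11.76 ± 11.04 against 0.918 ± 1.12 TPM, SD, log2 fold change 2.40 ± 0.65 (SE), limma adjusted p = 0.0275, exact permutation p = 0.0238).

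This call was lost without gland 133, 417_3 or 517_3 (adjusted p = 0.0624, 0.0744 and 0.0732), without carcinoma 3956 (0.0502), without the filter on low values (0.0734), with the epithelial markers as a covariate (0.0566) and with glands 417_3 and 517_3 averaged (0.0745), over a range of 0.0108 to 0.0745. Each subtype alone missed the threshold (carcinosarcomas 2.38 ± 0.74, limma adjusted p = 0.0516, carcinomas 2.43 ± 0.65, limma adjusted p = 0.0826). In carcinosarcomas it passed without gland 392 (2.73, adjusted p = 0.0391) or tumor 897 (3.04, adjusted p = 0.0432), and with a pseudocount of 0.1 TPM (0.0421), quantile normalization (0.0262) or the adipocyte covariate (0.0267). Without tumor 567 it was 1.46 (adjusted p = 0.121). In carcinomas it passed without tumor 273_5 (3.17, adjusted p = 0.0424). The non-TRIM24 tumors 219, FVB001 and FVB002 had 10.8, 10.2 and 6.53 TPM, above all glands, with a log2 fold change of 2.35 ± 0.74 against control glands (limma adjusted p = 0.137, 95% interval 0.75 to 3.94), and of 2.53 (adjusted p = 0.0428) without the batch term. From the non-TRIM24 tumors to the carcinomas of Trim24COE mice the difference in Aldh1a2 was 0.11, with an interval of -1.58 to 1.81. Fibroblast marker sums (10 markers) were 656 to 1856 TPM in glands, 333 to 3141 in carcinomas and 2105 to 8136 in carcinosarcomas. Among Trim24COE tumors the sum was highest in 567 and lowest in 273_5, as was Aldh1a2. Carcinosarcoma 64, at 6399 TPM, had less Aldh1a2 than carcinomas 89 and 3956, at 3141 and 2070 TPM. In non-TRIM24 tumors the sum was 882 to 1635 TPM, within the range of the glands. The part of fibroblast content was not tested.

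Aldh1a3, the retinaldehyde dehydrogenase of many epithelia (chromosome 7, 66390890 to 66427517, minus strand), was low in carcinosarcomas and spread widely in carcinomas. It had 6.41, 27.2, 22.6 and 17.7 TPM in glands 133, 392, 417_3 and 517_3. The carcinosarcomas 897, 567 and 64 had 4.15, 3.74 and 0.85 TPM, all below every gland (log2 fold change -2.29 ± 0.56 (SE), limma adjusted p = 0.0229, exact permutation p = 0.0571). The carcinomas 89, 273_5 and 3956 had 146, 48.4 and 3.36 TPM, which span the range of the glands on both sides (0.86 ± 1.09, limma adjusted p = 0.714).

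The call in carcinosarcomas was lost without tumor 64 (adjusted p = 0.0949), tumor 567 (0.0552) or gland 517_3 (0.0501), without the filter on low values (0.0749), with all 10 mice of batch 1 in the fit (0.13) and with the endothelial covariate (0.358), within a range of 0.0087 to 0.358 over all alternatives. Carcinosarcomas against carcinomas gave -3.15 ± 1.21 (limma adjusted p = 0.299, 95% interval -6.01 to -0.29), and ranged without single mice from -2.04 (without carcinoma 89) to -4.58 (without carcinoma 3956), with an adjusted p of 0.0303 to 0.692 that passed without carcinoma 3956 alone. Values of Aldh1a3 overlapped between the subtypes, whereas the summed epithelial markers did not (395 to 1427 against 3153 to 7501 TPM). With the epithelial markers as a covariate the difference was 1.00 (limma adjusted p = 0.986). Carcinoma 3956 had 3.36 TPM of Aldh1a3 (3.53 TPM in the repeat library) and the highest epithelial sum among the Trim24COE tumors, 7501 TPM. Because the epithelial sums did not overlap, this covariate cannot separate epithelial content from subtype. The part of epithelial content in the difference was therefore not tested. Among non-TRIM24 tumors Aldh1a3 was 34.7, 29.4 and 4.78 TPM in tumors 219, FVB002 and FVB001, with epithelial sums of 6544, 3640 and 626 TPM.

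The enzyme with the most RNA per length therefore differed between samples. Aldh1a1 led in glands 133 and 392 and in tumors FVB001 and FVB002, while Aldh1a3 led in glands 417_3 and 517_3, carcinomas 89 and 273_5, carcinosarcoma 897 and tumor 219. Aldh1a2 led in carcinoma 3956 and in carcinosarcomas 567 and 64. The sum of all 3 was 23.5 to 84.9 TPM in control glands, 16.4 to 167 TPM in carcinomas, 6.46 to 36.0 TPM in carcinosarcomas and 46.0 to 77.0 TPM in non-TRIM24 tumors. These ranges overlapped between neighbouring groups, except that the carcinosarcomas lay below the non-TRIM24 tumors.

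**Figure D2:**
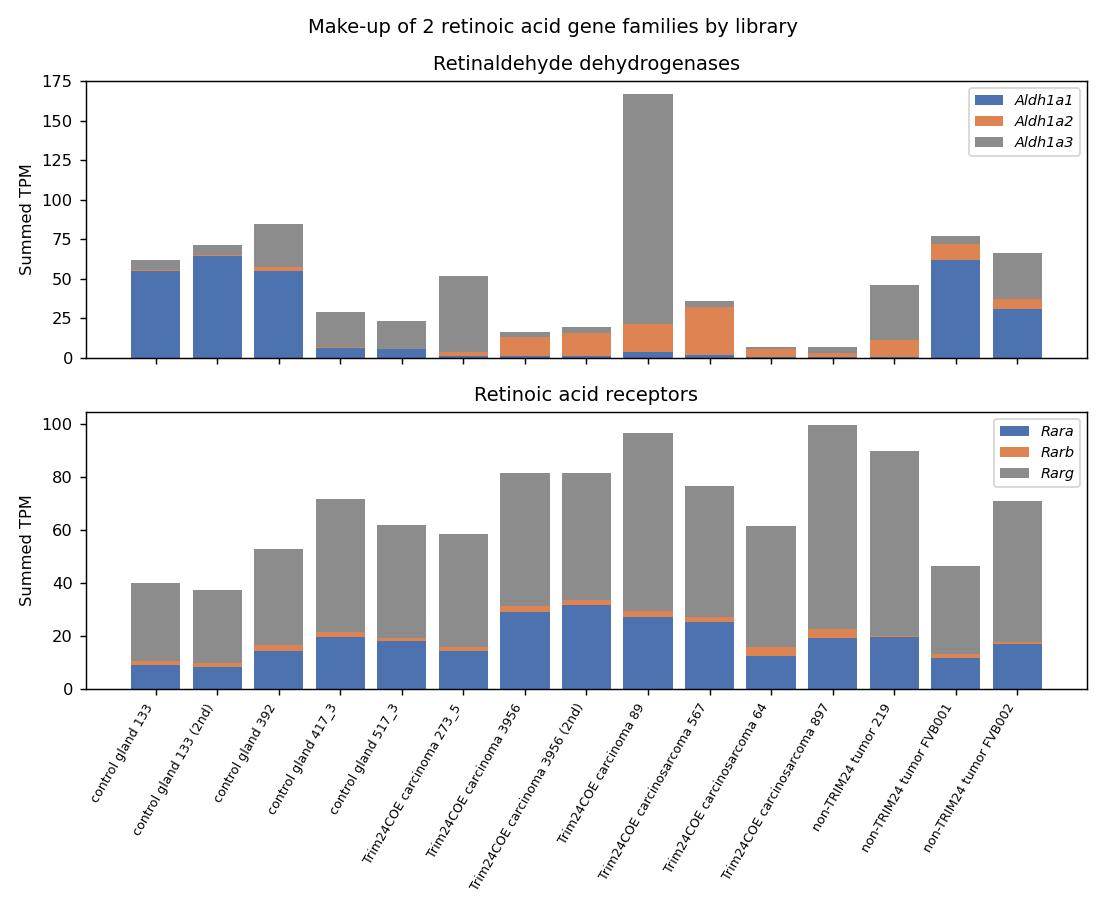
Summed TPM (y axis, linear) of the 3 retinaldehyde dehydrogenases (top) and the 3 retinoic acid receptors (bottom) in each of the 15 libraries (x axis), with repeat libraries marked 2nd. Aldh1a1 fills most of the bar in glands 133 and 392, Aldh1a3 reaches 146 TPM in carcinoma 89, and Rarg is the largest part of every receptor bar.

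Rbp4, the plasma retinol carrier that adipocytes also secrete (chromosome 19, 38116629 to 38125281, minus strand), varied more than any other gene of the group within batch 1, with an SD of 2.94 on the log2(TPM + 1) scale over the 10 first libraries. Glands 133 and 392 had 448 and 300.3 TPM, while glands 417_3 and 517_3 had 1.46 and 2.17 TPM. The carcinomas 89, 273_5 and 3956 had 42.3, 13.8 and 0.52 TPM, and the 3 carcinosarcomas had 2.46 to 3.53 TPM. Carcinoma 3956 lay below every gland and the other 5 tumors lay inside the range of the glands (log2 fold change -2.35 ± 1.56 (SE), limma adjusted p = 0.321, 95% interval -5.76 to 1.07). With glands 417_3 and 517_3 averaged it was -3.53 (adjusted p = 0.158). In the non-TRIM24 tumors FVB001, FVB002 and 219 it was 1197, 464 and 0.42 TPM, the same order as their adipocyte sums.

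With the adipocyte markers as a covariate the sign for Rbp4 turned, to 2.43 in Trim24COE tumors (adjusted p = 0.0449) and 2.66 in carcinosarcomas (adjusted p = 0.0166), and 2.35 in carcinomas (adjusted p = 0.0596). The range of the adjusted p over all alternatives was 0.0449 to 0.675 in the first comparison. By adipocyte sum no Trim24COE tumor (183 to 1525 TPM) reached any gland (1985 to 40618 TPM), so the turned values rest on the fitted trend. Whether Rbp4 differs at equal fat content was not tested. Carcinoma 89, with an adipocyte sum of 1525 TPM, had more Rbp4 than glands 417_3 and 517_3, with sums of 1985 and 2153 TPM.

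Rbp7 (chromosome 4, 149449687 to 149454978, minus strand) had the smallest adjusted p of the 9 genes in each comparison in which any of them passed. It was 146, 116, 63.2 and 83.8 TPM in glands 133, 392, 417_3 and 517_3. The carcinomas 89, 273_5 and 3956 had 8.78, 4.27 and 2.95 TPM, and the carcinosarcomas 64, 567 and 897 had 11.7, 5.58 and 4.21 TPM. The non-TRIM24 tumors 219, FVB002 and FVB001 had 347, 313 and 297 TPM. Every Trim24COE tumor lay below every gland, every gland lay below every non-TRIM24 tumor, and the Trim24COE subtypes overlapped.

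Rbp7 fell by 3.88 ± 0.36 on the log2 scale in Trim24COE tumors (SE, limma adjusted p = 0.000207, exact permutation p = 0.00476, the smallest possible). It was lower in carcinosarcomas (-3.70 ± 0.40, limma adjusted p = 0.00147) and in carcinomas (-4.06 ± 0.41, limma adjusted p = 0.0087), with an exact permutation p of 0.0286 in each, the smallest that 3 against 4 mice allow. Carcinomas against non-TRIM24 tumors gave -5.81 ± 0.59 (limma adjusted p = 0.00135). Non-TRIM24 tumors against control glands gave 1.63 ± 0.55 (limma adjusted p = 0.153), 2.27 with an adjusted p of 0.0223 without gland 133, and 1.70 with an adjusted p of 0.0197 without the batch term. Repeat libraries of mouse 133 had 146 and 190 TPM and those of mouse 3956 had 2.95 and 2.09 TPM. The part of the batch in the comparisons with non-TRIM24 tumors was not tested beyond the batch term.

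All alternatives kept the calls for Rbp7 in Trim24COE tumors and in carcinosarcomas (adjusted p from 0.000214 to 0.006 and from 0.00114 to 0.04996), and all 12 kept that against non-TRIM24 tumors (3.74e-05 to 0.0138). In carcinomas against glands the call was lost with the endothelial markers as a covariate (-4.19, adjusted p = 0.148, range 0.002 to 0.148). The endothelial marker sum was 118 to 603 TPM in Trim24COE tumors and 582 to 855 TPM in control glands. In these tumors 5 of 12 endothelial and 6 of 12 adipocyte markers passed as lower, beside 9.13% of all genes tested. At an unadjusted p under 0.05 (limma) there were 8 and 11 of them. The median log2 fold changes of the 2 marker lists were -1.15 and -3.75. Tumor 219 had 347 TPM of Rbp7 with an endothelial sum of 177 TPM and an adipocyte sum of 231 TPM. Both sums lay within the ranges of the Trim24COE tumors, in which Rbp7 reached at most 11.7 TPM. The part of endothelial and adipocyte content in the result was not tested beyond the covariates.

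**Figure D3:**
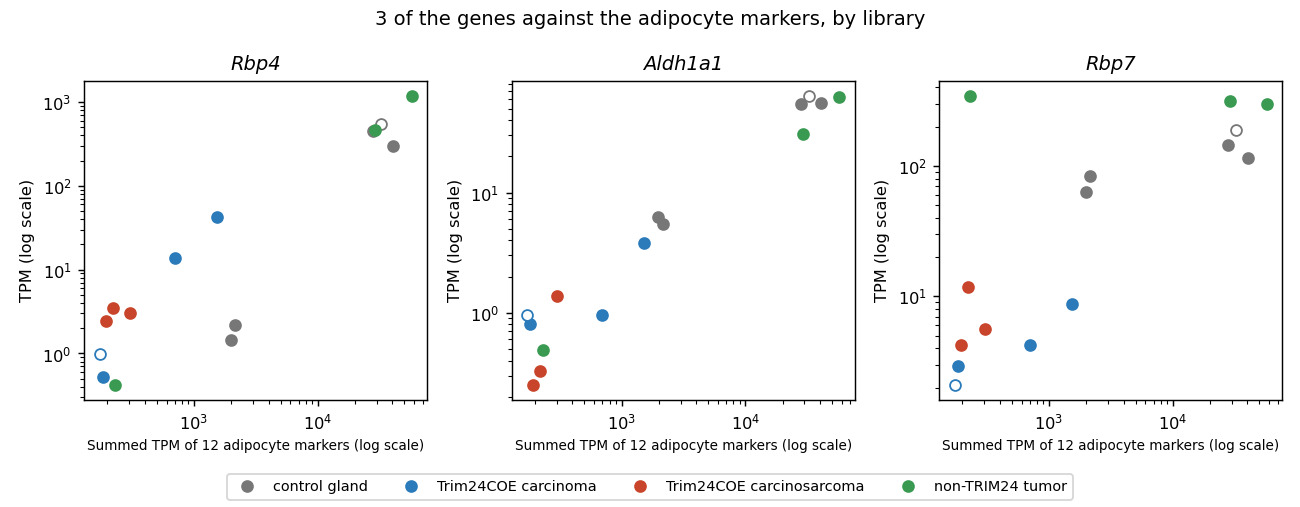
TPM of Rbp4, Aldh1a1 and Rbp7 (y axes, log scale) against the summed TPM of 12 adipocyte markers (x axes, log scale), 1 point per library, open points being repeat libraries. Rbp4 and Aldh1a1 are highest in the libraries with the largest adipocyte sums, whereas Rbp7 is at 347 TPM in non-TRIM24 tumor 219 at an adipocyte sum of 231 TPM.

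Crabp2, which passes retinoic acid to its receptors (chromosome 3, 87948666 to 87953376, plus strand), was higher in Trim24COE tumors. Glands 133, 392, 417_3 and 517_3 had 36.8, 17.0, 57.3 and 62.3 TPM. The carcinosarcomas 897, 567 and 64 had 645, 255 and 84.6 TPM, all above every gland, and the carcinomas 89, 273_5 and 3956 had 271, 141 and 46.0 TPM, of which the last lay among the glands. The 6 tumors together gave a log2 fold change of 2.11 ± 0.66 (SE, limma adjusted p = 0.0478, exact permutation p = 0.0286) and the carcinosarcomas gave 2.60 ± 0.70 (limma adjusted p = 0.0321, exact permutation p = 0.0286).

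The first of these calls lay so near the threshold that it was lost without any of 9 of the 10 mice (all but carcinoma 3956), with an adjusted p of at most 0.131. It was also lost with quantile normalization (0.0625), without the variance trend (0.0509), without the filter on low values (0.113) and with glands 417_3 and 517_3 averaged (0.0686). With the adipocyte, epithelial or endothelial markers as a covariate the adjusted p was 0.304, 0.131 or 0.221. In carcinosarcomas the call was lost without gland 133 (0.0571) or 392 (0.0556) and without tumor 567 (0.0997) or 897 (0.0988), without the filter on low values (0.104), and with the adipocyte (0.197) or endothelial (0.355) markers as a covariate. Carcinomas alone did not pass (1.61 ± 0.65, limma adjusted p = 0.202). Non-TRIM24 tumors 219, FVB002 and FVB001 had 192, 115 and 16.5 TPM, with a log2 fold change against control glands of 0.82 ± 0.89 (limma adjusted p = 0.638, 95% interval -1.10 to 2.74). Among the 3 binding proteins, Crabp2 had the highest level in every Trim24COE library, while Rbp4 or Rbp7 led in every control gland and non-TRIM24 tumor.

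**Figure D4:**
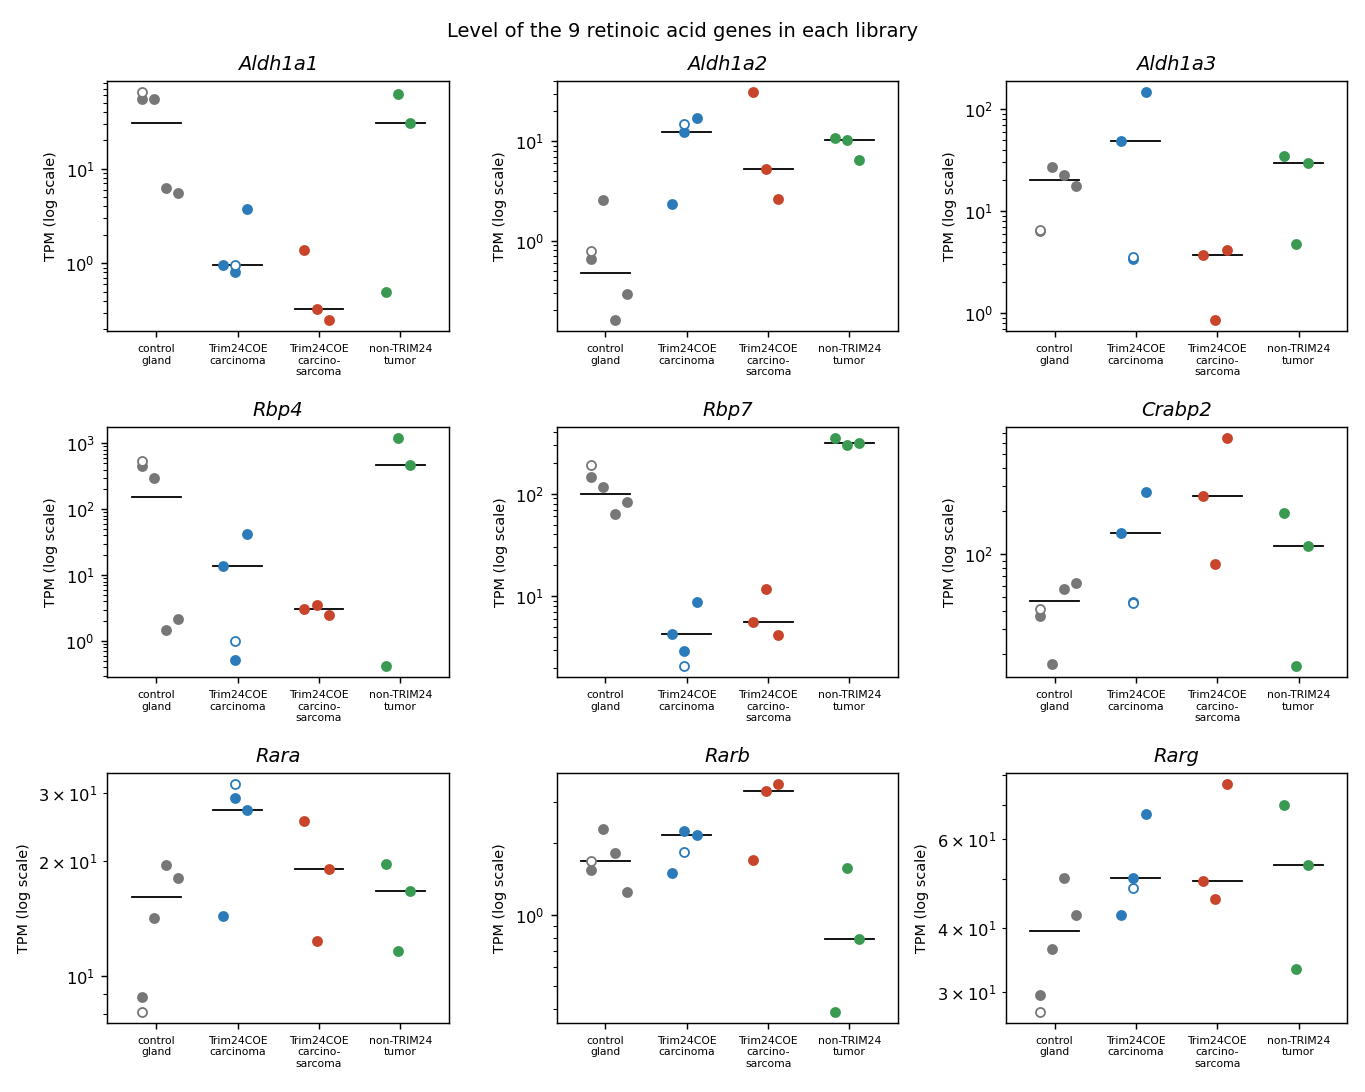
TPM (y axes, log scale) of the 9 genes in each library by group. Filled points are first libraries, open points repeat libraries of mice 133 and 3956, and black lines group medians. The Trim24COE tumors lie below the control glands for Aldh1a1 and Rbp7, and each tumor group overlaps the control glands for the 3 receptors. For Rarb the carcinosarcomas lie above the non-TRIM24 tumors.

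Over the 10 first libraries of batch 1 the SD on the log2(TPM + 1) scale was 0.33 to 0.51 for the receptors and 1.55 to 2.94 for the other 6 genes. Rarg (chromosome 15, 102234938 to 102257517, minus strand), the receptor of epithelium and skin, was the most abundant per length in all 15 libraries, with 58.9% to 77.7% of the summed receptor TPM. It ranged from 29.6 to 50.4 TPM in control glands, from 42.5 to 67.1 TPM in carcinomas, from 45.7 to 76.9 TPM in carcinosarcomas and from 33.3 to 69.9 TPM in non-TRIM24 tumors, and all groups overlapped. The log2 fold change of Trim24COE tumors against control glands was 0.46 ± 0.23 (SE, limma adjusted p = 0.193, 95% interval -0.05 to 0.97, exact permutation p = 0.0714).

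Rara (chromosome 11, 98927818 to 98974942, plus strand), the widely expressed receptor, made up 19.2% to 38.9% of the sum. It was 8.82, 14.2, 19.5 and 18.1 TPM in glands 133, 392, 417_3 and 517_3, 14.4 to 29.1 TPM in carcinomas, 12.4 to 25.3 TPM in carcinosarcomas and 11.7 to 19.6 TPM in non-TRIM24 tumors. The log2 fold change in Trim24COE tumors was 0.45 ± 0.31 (SE, limma adjusted p = 0.342, 95% interval -0.23 to 1.14).

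Rarb (chromosome 14, 16430839 to 16819156, minus strand), the gene with the repeat in the promoter printed above, was the scarcest receptor, at 0.434% to 5.43% of the sum. The printed window lies inside this span, at a start other than the outer end of the gene. It was 1.55, 2.29, 1.82 and 1.25 TPM in glands 133, 392, 417_3 and 517_3, and 2.18, 1.5 and 2.26 TPM in carcinomas 89, 273_5 and 3956. The carcinosarcomas 897, 64 and 567 had 3.56, 3.34 and 1.70 TPM, and the non-TRIM24 tumors FVB001, FVB002 and 219 had 1.57, 0.79 and 0.39 TPM. The log2 fold change in Trim24COE tumors was 0.31 ± 0.25 (SE, limma adjusted p = 0.426, 95% interval -0.24 to 0.85), and in non-TRIM24 tumors -0.50 ± 0.34 (limma adjusted p = 0.429, 95% interval -1.23 to 0.23). No receptor passed in any of the 6 comparisons or their alternatives, and a call that is missed does not show equal levels.

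Of 65 other genes in lists of retinoid handling, retinoic acid breakdown, partner receptors with cofactors, and retinoic acid targets, 48 were tested between Trim24COE tumors and control glands, of which 2 were higher and 7 lower, where 7.96% and 9.13% of all genes were. Their median log2 fold change was -0.39, beside -0.04 over all genes. Stra6, the cell-surface receptor for RBP4-bound retinol, rose from 0.79 to 4.43 TPM in glands to 3.39 to 79.3 TPM in tumors (2.97 ± 0.73, limma adjusted p = 0.0194). Rdh10, which makes retinaldehyde from retinol, was 5.02 to 12.97 TPM in glands and 20.3 to 133 TPM in tumors (1.82 ± 0.51, limma adjusted p = 0.0309). Dhrs3, which runs that step backwards, was 118 to 187 TPM in glands and 35.8 to 73.8 TPM in tumors (-1.51 ± 0.24, limma adjusted p = 0.00243). For Rdh10 and Dhrs3, and for Rxra, Rora and Ncoa1 named below, the Trim24COE tumors did not overlap the glands. They did overlap for Stra6, and for Adh1 and Lpl below. Over all genes tested, 14.6% did not overlap.

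Also lower were Adh1, an alcohol dehydrogenase that oxidizes retinol (-3.15, adjusted p = 0.022, with 55.6 and 103 TPM in the fat-rich glands 133 and 392 against 4.85 and 6.63 TPM in glands 417_3 and 517_3), Rxra, the shared partner of the receptors (-0.92, adjusted p = 0.0352), the nuclear receptor Rora (-1.60, adjusted p = 0.0114), the coactivator Ncoa1 (-1.60, adjusted p = 0.0167) and Lpl, a lipase that is also among the adipocyte markers (-3.76, adjusted p = 0.041), all by limma. The part of fat content in the values of Adh1 and Lpl was not tested. Of the retinoic acid target list, 2 of 16 genes tested were higher (Stra6 and Crabp2) and 1 lower (Dhrs3), beside 7.96% and 9.13% of all genes. Each of these genes is also counted above. Cyp26a1, whose promoter is printed above, was 0.07 to 0.27 TPM in glands and 0.27 to 8.38 TPM in Trim24COE tumors. It was 0.17 to 1.99 TPM in non-TRIM24 tumors. Too few libraries reached 1 TPM for a test of Cyp26a1 in Trim24COE tumors against glands.

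In carcinosarcomas, 3 of 48 such genes were higher and 6 lower, beside 9.83% and 13.1% of all genes. Crabp1, the other cellular retinoic acid-binding protein, was 137 to 573 TPM against 6.51 to 14.5 TPM in control glands (4.44 ± 0.50, limma adjusted p = 0.00164). Rbp2, the intestinal-type retinol-binding protein, was 23.1 to 40.9 TPM against 0.08 to 0.67 TPM (4.51 ± 0.32, limma adjusted p = 0.00052), and Rdh10 was also higher (1.296 ± 0.339, limma adjusted p = 0.0294). Ncoa1 (-2.02), Dhrs3 (-1.52), Rxra (-1.18), Rora (-1.66), Adh1 (-3.54) and the coactivator Ncoa2 (-1.43) were lower (limma adjusted p from 0.0108 to 0.0435).

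In carcinomas, 1 of 50 was higher (Stra6, 3.92 ± 0.55, limma adjusted p = 0.016) and 1 lower (Dhrs3, -1.50 ± 0.26, limma adjusted p = 0.0267), beside 1.58% and 1.92% of all genes. Crabp1 in carcinomas 3956, 89 and 273_5 was 130, 54.7 and 3.16 TPM. None of 47 such genes passed between carcinosarcomas and carcinomas, and none of 52 passed for non-TRIM24 tumors against control glands or for Trim24COE carcinomas against non-TRIM24 tumors (limma, 7, 12 and 8 at an unadjusted p under 0.05). In the last comparison Stra6 had a log2 fold change of 3.12 ± 0.76 (limma adjusted p = 0.154) and Rdh10 of 2.63 ± 0.57 (limma adjusted p = 0.142).

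**Figure D5:**
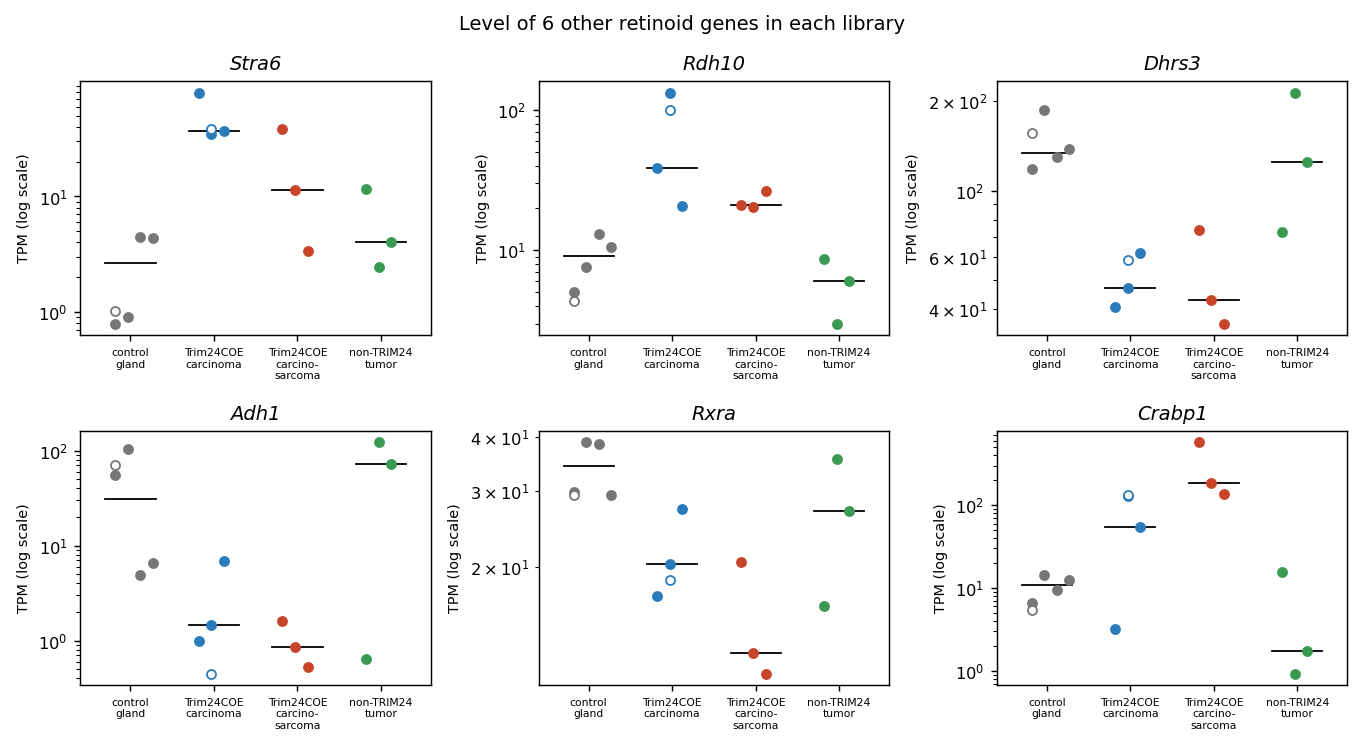
TPM (y axes, log scale) of Stra6, Rdh10, Dhrs3, Adh1, Rxra and Crabp1 in each library by group. Filled points are first libraries, open points repeat libraries and black lines group medians. Rdh10 lies above, and Dhrs3 and Rxra lie below, the control glands in all 6 Trim24COE tumors, while Crabp1 is at 137 TPM or more in each carcinosarcoma.

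The genes most like each of the 6 members with an SD of at least 1 were found by the root-mean-square difference of the centred log2(TPM + 1) profiles over the 10 first libraries of batch 1, among 13712 genes. For Aldh1a1 these were Gnai1 (0.26), Slc1a5 (0.30) and Adh1 (0.34), and for Aldh1a2 they were Fndc1 (0.35), Col5a2 (0.42) and Ddah1 (0.42). Aldh1a3 was closest to Gabrp (0.56), Snorc (0.75) and Trp63 (0.77), and Rbp4 to Mrap (0.56), Adrb3 (0.68) and Tmem45b (0.73). Rbp7 was closest to Agtr1a (0.42), C1qtnf9 (0.51) and Btnl9 (0.56), and Crabp2 to Top2a (0.71), Eno1 (0.74) and Knstrn (0.75). These distances compare with SDs of 1.55 to 2.94 of the members themselves, and they rest on 10 libraries whose profiles share the split in fat content.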

How the data were processed

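The deposited values are TPM per gene. Per the authors, reads were trimmed, aligned to GRCm38 with STAR and quantified with RSEM on the GENCODE annotation, whereas the submitters' processing notes name TopHat, Cufflinks and RSEM. The labels name a stranded total RNA kit and the methods another TruSeq kit, so strand use in the counting is not given in the sources used here. TPM keeps no depth, and read counts were not used here.

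The genes and lists were chosen with earlier results of these data known. Genes that reached 1 TPM in a number of libraries equal to the mice of the smaller group were fitted on log2(TPM + 1), which understates changes of low genes, with limma 3.58.1 in R 4.3.3 (variance trend, two-sided, Benjamini-Hochberg, threshold 0.05). Comparisons within batch 1 used only the groups compared. Those with non-TRIM24 tumors used all 15 libraries, a batch term, which rests on 2 mice, and a within-mouse correlation of 0.951. Exact permutation tests were two-sided over mice, unadjusted for the 9 genes, and not run across batches. Each marker covariate was the mean log2(TPM + 1) of the 12 markers of its list. Adipocyte sums did not overlap between Trim24COE tumors and glands, nor epithelial sums between the subtypes. In those comparisons these covariates cannot fully separate cell content from group. The code was tested on simulated data. Named were all 9 genes, up to 6 list genes per direction with the smallest adjusted p, Trim24, defining markers and the 3 most alike genes. Aldh1a7, and list genes given without a call, are outside this rule and were picked with their values known. The labels do not state that samples of a group come from separate litters or cohorts, so p-values measure the spread between these mice.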

Additional observations from a re-analysis of the deposited data

Results flagged for a closer look

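Rbp7 was flagged because the tumor types differed from each other in a test of the difference itself. Relative to non-TRIM24 tumors, Trim24COE carcinomas were lower, with a difference of -5.81 on the log2 scale (limma adjusted p = 0.00135 with the batch term), with 2.95 to 8.78 TPM against 297 to 347 TPM. Against the same control glands, Trim24COE carcinomas were below and non-TRIM24 tumors above every gland. Non-TRIM24 tumors were present only in batch 2. The repeats of mice 133 and 3956 shifted by 0.38 and -0.35 on the log2 scale between batches. No control gland (of 4) and no Trim24COE tumor (of 6) stood apart from its group by Dixon's test for any of the 9 genes. This covers 18 such groups, of which chance flags about 1 in 20. The test looks for a single outlying sample, so it cannot show a split of the glands into pairs.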

How the results depend on the processing

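Of 771 alternative values for single genes, 672 kept their direction and their side of the threshold, 45 turned in sign, 44 lost a call and 10 gained one. Every value that turned was uncalled before, and 2 of them, both of Rbp4 with the adipocyte covariate, passed after turning. The cause of these changes was not tested. The endothelial covariate and the averaging of glands 417_3 and 517_3 were chosen after seeing the data. Of the 9 genes, the number passing in Trim24COE tumors against control glands (4) was 2 without the filter on low values, with the epithelial or endothelial covariate and with glands 417_3 and 517_3 averaged, and 2 to 3 without single mice. In carcinosarcomas (4) it was 5 with a pseudocount of 0.1 TPM or the adipocyte covariate, 1 without the filter or with the endothelial covariate and 1 to 4 without single mice. In carcinomas (1) it was 0 with the endothelial covariate and 1 to 2 without single mice. Between the subtypes (0) it was 0 to 1 without single mice. For non-TRIM24 tumors against glands (0) it was 2 without the batch term and 0 to 1 without single mice, and against carcinomas it stayed at 1. Over all genes, the counts ranged from 1076 to 3104 in Trim24COE tumors (main 2597), 240 to 4895 in carcinosarcomas (3511), 28 to 1170 in carcinomas (542), 0 to 293 between subtypes (99), 7 to 2330 for non-TRIM24 tumors against glands (119) and 2 to 1500 against carcinomas (5), the highest in both of these last comparisons without the batch term. With all mice, counts over all genes that differed from the main count by over 1.5 times were, in Trim24COE tumors, 1076, 1701 and 1311 with the adipocyte, epithelial and endothelial covariate. In carcinosarcomas they were 1623 without the filter and 240 with the endothelial covariate. In carcinomas they were 46 without the filter, 1170 with all 10 batch 1 mice in the fit, 28 with the endothelial covariate and 82 with the glands averaged. Between subtypes they were 0 without the filter and 0 with the epithelial covariate (limma). In non-TRIM24 tumors they were 48 without the filter, 18 with separate libraries, 2330 without the batch term and 51 with the glands averaged, and against them 2 with a pseudocount of 0.1, 12 without the filter, 3 with separate libraries and 1500 without the batch term. Without single mice, such counts in carcinosarcomas were 1345, 1793 and 2185 (without 64, 567 and 897), and in carcinomas 277, 262, 100, 87 and 72 (without 89, 273_5, 3956, 417_3 and 517_3). Between subtypes they were 0, 0, 49, 14 and 293 (without 64, 89, 567, 897 and 3956). In non-TRIM24 tumors they were 476, 57, 49, 70 and 7 (without 133, 417_3, 517_3, 219 and FVB002), and against them 2, 66, 9, 89, 13 and 2 (without 89, 273_5, 3956, 219, FVB001 and FVB002). Quantile normalization moved the median of all genes by over 0.1 in carcinosarcomas (from -0.12 to 0.04), between subtypes (-0.10 to 0.03), in non-TRIM24 tumors (-0.27 to -0.02) and against them (0.27 to 0.07). Log2 fold changes that turned in sign were as follows. With the adipocyte covariate, Aldh1a3 (0.47) and Rbp4 (2.43) in Trim24COE tumors, Rbp4 (2.66) and Rara (-0.16) in carcinosarcomas and Rbp4 (2.35) in carcinomas turned. With the epithelial covariate, Aldh1a3 (0.64) in Trim24COE tumors and, between subtypes, Aldh1a2 (7.26), Aldh1a3 (1.00), Rbp4 (3.35), Rara (1.03) and Rarb (-0.42) turned. With the endothelial covariate Aldh1a3 in carcinomas was -0.11. With quantile normalization Aldh1a2 was 0.13 between subtypes and -0.12 for carcinomas against non-TRIM24 tumors. With libraries treated as separate, Rbp4 was -0.0834 in non-TRIM24 tumors, and against them Aldh1a3 was -1.41 and Crabp2 -0.0736 in carcinomas. Without the batch term, Aldh1a2 was -0.10 and Rarg 0.0682 in that comparison. Without single mice, Aldh1a3 ranged from -0.25 to 2.29 in carcinomas. Between subtypes, Aldh1a2 ranged from -0.97 to 0.60, Rbp7 from -0.0068 to 0.73 and Rarg from -0.13 to 0.27. In non-TRIM24 tumors, Aldh1a1 ranged from -1.73 to 0.97, Aldh1a3 from -0.32 to 0.99, Rbp4 from -0.70 to 4.16 and Rara from -0.25 to 0.32. In carcinomas against non-TRIM24 tumors, Aldh1a2 ranged from -0.35 to 0.84, Aldh1a3 from -0.37 to 2.16, Crabp2 from -0.27 to 1.59 and Rarg from -0.31 to 0.21. Where 1 repeated mouse was left out, the within-mouse correlation of all mice was used.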
